A study of Homo sapiens with 18 samples.

Results

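The heat shock and DNAJ chaperone genes were taken as every gene whose single symbol in the platform annotation starts with HSPA, HSPB, HSPD, HSPE, HSPH, HSP90 or DNAJ. The rule found 73 genes among those of the array, and the value of each gene was the mean of the log2 values of its probe sets. With at least 3 probe sets required, 71 of them entered the test together with all others of the 16241 genes. HSPA6, with 1 probe set, and HSPB2, with 2, were left out of the test, and the stress-inducible pair HSPA1A and HSPA1B lies outside the rule because all its probe sets carry several symbols. Prefixes gather genes of unlike function: HSPB11 is today called IFT25, an intraflagellar transport protein, and HSPBP1 and HSPBAP1 bind heat shock proteins without being chaperones of those families.

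The arrays came from 3 human leukaemia and lymphoma lines of myeloid type: HL60, from an acute promyelocytic leukaemia, THP-1, from an acute monocytic leukaemia, and U937, from a histiocytic lymphoma. In each line, 3 arrays came from cells given the phorbol ester PMA (phorbol 12-myristate 13-acetate), which switches on protein kinase C, at 30 nM for 3 days, and 3 arrays came from cells given the vehicle, dimethyl sulfoxide (DMSO), for the same time. All groups were grown in RPMI medium with fetal calf serum, and every line is an established line cultured alone, without other blood cells. An Affymetrix exon array was hybridised with cDNA from total RNA of each of the 18 samples. The labels number the samples of a group but do not say that they were separate cultures, so each p-value here reflects the scatter among the arrays, which may be technical.

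Chaperones bind unfolded stretches of other proteins and keep them from clumping. HSP70 proteins work in a cycle that J-proteins (the DNAJ genes) start by bringing a client and speeding ATP hydrolysis, and that exchange factors such as the HSP110 proteins end by releasing ADP. HSP90 finishes the folding of kinases and receptors, HSP60 with its lid HSP10 folds proteins inside mitochondria, and small heat shock proteins hold unfolded clients without using ATP. Heat shock factors switch many of these genes on during stress, while a separate set serves the endoplasmic reticulum and answers to the unfolded protein response.

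Array medians ran from 6.18 to 6.95 log2, and arrays of 1 group correlated at 0.931 to 0.978 over all probe sets. The 2 U937 arrays numbered 2 (1 PMA, 1 DMSO) shared at most 5 exactly tied values with any other array, against 39 to 116 within lines among the rest, and were the only arrays to stand apart in this way. The PMA array of that pair held 83228 distinct values, against 214471 to 220516 on the others. Between the U937 arrays numbered 2, the median PMA difference over all genes was -0.42 log2, against 0.03 and 0.05 in the pairs numbered 1 and 3. Of the myeloid markers, CD33 averaged 8.10 to 8.55 log2 with PMA and 8.44 to 8.75 with DMSO over the 3 lines. All 6 T and NK cell markers lay under 5.17, the 30th percentile of probe sets. Of 3 B cell markers only 0, 1 and 0 did in HL60, THP-1 and U937. In each line 2 of 5 epithelial and 1 of 4 fibroblast markers did, and epithelial KRT8 averaged 6.71 to 6.78 with PMA. This level is therefore no threshold for absence. The integrin ITGAX, a macrophage marker, averaged 10.2, 9.85 and 10.5 log2 in PMA-treated HL60, THP-1 and U937, against 5.93, 6.84 and 5.65 with DMSO, with no overlap in any line. Another, CD14, averaged 6.77 log2 in PMA-treated HL60 against 7.91 with DMSO. The granule enzyme MPO lay near the low level in U937, at 5.37 log2 with PMA and 5.17 with DMSO.

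The chaperone genes did not move as a block. In HL60, 8 of 71 were called higher with PMA and 4 lower, against 12.3% and 10.7% of all genes tested. In THP-1, 4 were higher and 14 lower, against 9.38% and 13.2% of all genes. In U937, 2 were higher and 13 lower, against 5.5% and 16.5%. A call here is an adjusted p under 0.05 in limma, with Benjamini-Hochberg adjustment over all 16241 genes. The members' median change was 0.05, -0.23 and -0.30 log2 in HL60, THP-1 and U937, against 0.13, 0.04 and -0.07 over all genes. The 3 PMA arrays lay wholly above or below the 3 DMSO arrays in 24, 32 and 24 members, against 46.1%, 43% and 25.4% of all genes. In bulk RNA such changes cannot tell fewer cells of a kind from less RNA per cell.

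**Figure D1:**
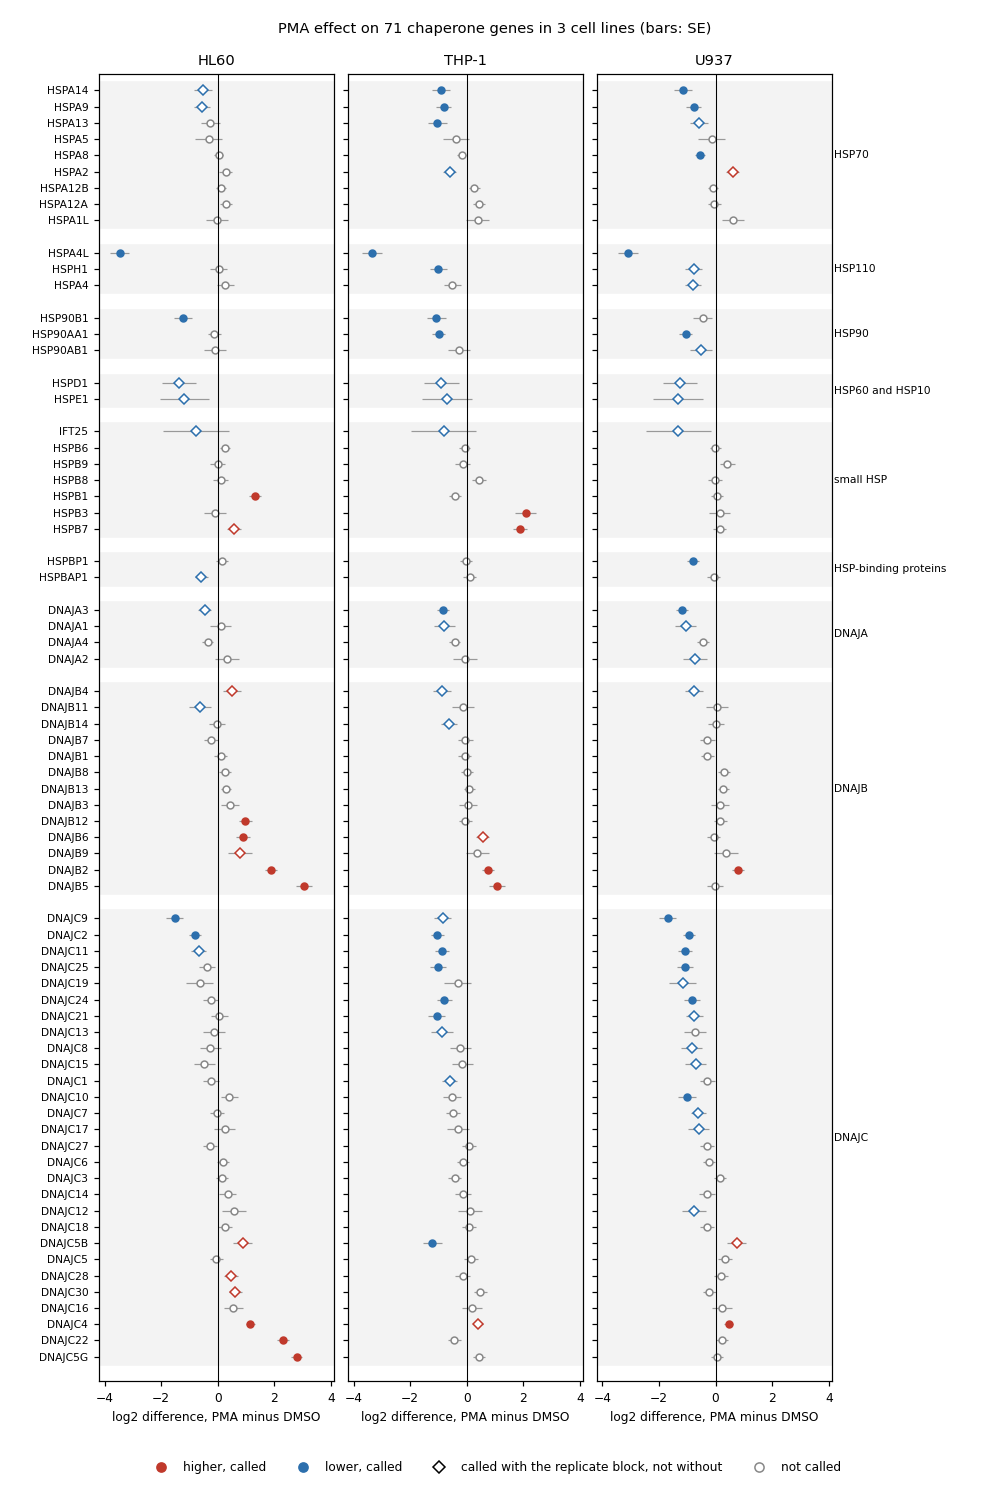
Change of each of 71 tested chaperone genes with PMA (log2, PMA minus DMSO, bars are SE, 3 against 3 arrays), in 1 panel per line and grouped by family. Filled circles passed the limma test (red higher, blue lower), diamonds passed it with same-numbered arrays paired and not without; HSPA4L lies far to the left in all 3 panels, and the HL60 panel holds the largest increases, DNAJB5 and DNAJC5G.

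Same-numbered PMA and DMSO arrays deviated together from their group means (r from 0.285 to 0.79). Arrays of different numbers in a line gave r from -0.654 to 0.437, so the 2 ranges overlap. The labels do not say that the numbers pair arrays, but the numbers were also used as pairs. With this replicate block the counts were 14 higher and 13 lower in HL60 (18.4% and 16% of all genes), 6 and 24 in THP-1 (14.1% and 20.7%), and 4 and 30 in U937 (7.76% and 25.5%). Every one of the 12, 18 and 15 calls made without the block in HL60, THP-1 and U937 held with it. Scaling mattered as well: with each array centred on its median the members split 9 higher to 9 lower in HL60, 7 to 15 in THP-1 and 6 to 10 in U937, where all genes split 14.9% to 14.9%, 16.8% to 15.7% and 14.4% to 14.3%. With quantile normalization the members split 10 to 9, 8 to 16 and 5 to 11, and all genes 15.9% to 14.8%, 16.1% to 16.1% and 13.2% to 14.2%. The THP-1 count of lower members fell to 3 without DMSO array 2, 6 without DMSO array 1 or PMA array 1, and 8 without PMA array 3. In U937 it was 8 without DMSO array 1 or DMSO array 2. Without both U937 arrays numbered 2 it was 6, with 4 higher, where 10.2% of all genes were lower and 8.1% higher. All-gene shares are not given for the counts without a single array.

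Across the lines, 43 of the 71 members were called in none, 14 in 1, 11 in 2 and 3 in all. HSPA4L and DNAJC2 were lower in all 3 lines, a class that held 5.94% of all genes, and DNAJB2 was higher in all 3, a class of 2.66%. No member was called higher in one line and lower in another. With the replicate block, 10 members were lower in all 3 lines (10.1% of all genes): HSPA4L, HSPA9, HSPA14, HSPD1, HSPE1, IFT25, DNAJA3, DNAJC2, DNAJC9 and DNAJC11. The block put DNAJB2 and DNAJC4 higher in all 3 (4.05%), and it called DNAJB4, DNAJC5B and HSPA2 in opposite directions in different lines.

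Within HSP110, HSPA4L fell more than any other member, by 11.1-fold in HL60, 10.1-fold in THP-1 and 8.57-fold in U937. This exchange factor for HSP70 had 3.87, 3.45 and 3.71 log2 on the PMA arrays of HL60, against 7.50, 7.54 and 6.39 with DMSO. It had 4.12, 4.57 and 5.54 in PMA-treated THP-1, against 8.22, 8.36 and 7.67. In U937 it had 4.70, 3.99 and 4.78 with PMA, against 7.63, 7.55 and 7.59. The groups were far apart in each line, and the changes of -3.47 ± 0.34, -3.34 ± 0.34 and -3.10 ± 0.34 log2 (SE, n = 3 arrays a group) had adjusted p = 5.19e-07, 1.67e-06 and 4.9e-06 in limma. All 21 of its probe sets were lower with PMA in each line, by 0.90 log2 or more. PMA brought it below 5.17 on 8 of 9 arrays, which is the level of the dimmest 30% of probe sets.

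HSPH1, the heat-inducible HSP105, had 8.25, 8.89 and 8.62 log2 in PMA-treated THP-1, against 9.62, 9.71 and 9.43 with DMSO, a fall of 1.00 ± 0.29 (adjusted p = 0.0174, limma). Its PMA arrays in U937 lay under the DMSO arrays too, with -0.78 ± 0.29 (adjusted p = 0.0651, or 0.009 with the replicate block). In HL60 its change was 0.03 ± 0.29. The THP-1 call was lost without DMSO array 1, DMSO array 2 or PMA array 1 (adjusted p up to 0.095). HSPA4, the third exchange factor of the family, differed by 0.27, -0.50 and -0.80 log2 in HL60, THP-1 and U937, and did not pass in the fit without the block (adjusted p = 0.0591 in U937, limma), but passed in U937 with it (0.00969) and without PMA array 1 or 3 (0.0415 and 0.0428).

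The 3 HSP90 genes differed in where they were called. HSP90AA1, the inducible cytosolic form, had 10.32, 11.14 and 10.66 log2 in PMA-treated THP-1, against 11.70, 11.86 and 11.53 with DMSO. In U937 it had 11.07, 10.37 and 10.68 with PMA, against 11.74, 11.84 and 11.70. Both lines showed no overlap, with falls of 0.98 ± 0.23 and 1.05 ± 0.23 (adjusted p = 0.00438 and 0.00263, limma), and all 15 probe sets were lower in both. HL60 gave 11.48, 11.16 and 10.87 with PMA against 11.58, 11.29 and 11.03, a change of -0.13 ± 0.23 that did not pass. The effect in HL60 minus that in THP-1 was 0.85 ± 0.33 and missed the threshold (adjusted p = 0.144), although it passed with the replicate block (0.0304). HSP90AB1, the constitutive form, changed by -0.09, -0.28 and -0.52 ± 0.38 and passed nowhere in the fit without the block (adjusted p = 0.0255 in U937 with it).

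HSP90B1, the HSP90 of the endoplasmic reticulum, was lower in HL60 and THP-1. It had 10.62, 9.76 and 9.40 log2 in PMA-treated HL60, against 11.66, 10.99 and 10.82 with DMSO, and 10.56, 11.28 and 10.70 in PMA-treated THP-1, against 11.99, 12.14 and 11.64. The changes were -1.23 ± 0.33 and -1.08 ± 0.33 (adjusted p = 0.0108 and 0.0259, limma), and all 21 probe sets were lower in both lines. In U937, 11.45, 10.77 and 10.42 with PMA overlapped 11.57, 11.55 and 10.86 with DMSO (-0.45 ± 0.33, adjusted p = 0.453), though all 21 probe sets were lower there too. The effect in HL60 minus that in U937 was -0.78 ± 0.47 and was not called (adjusted p = 0.442, limma), but passed with the block (0.0377). Without HL60 DMSO array 1 or PMA array 3 the HL60 call was lost (adjusted p = 0.069 and 0.0709), and the THP-1 call was lost when any 1 of 4 THP-1 arrays (DMSO 1 or 2, PMA 1 or 3) was left out.

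**Figure D2:**
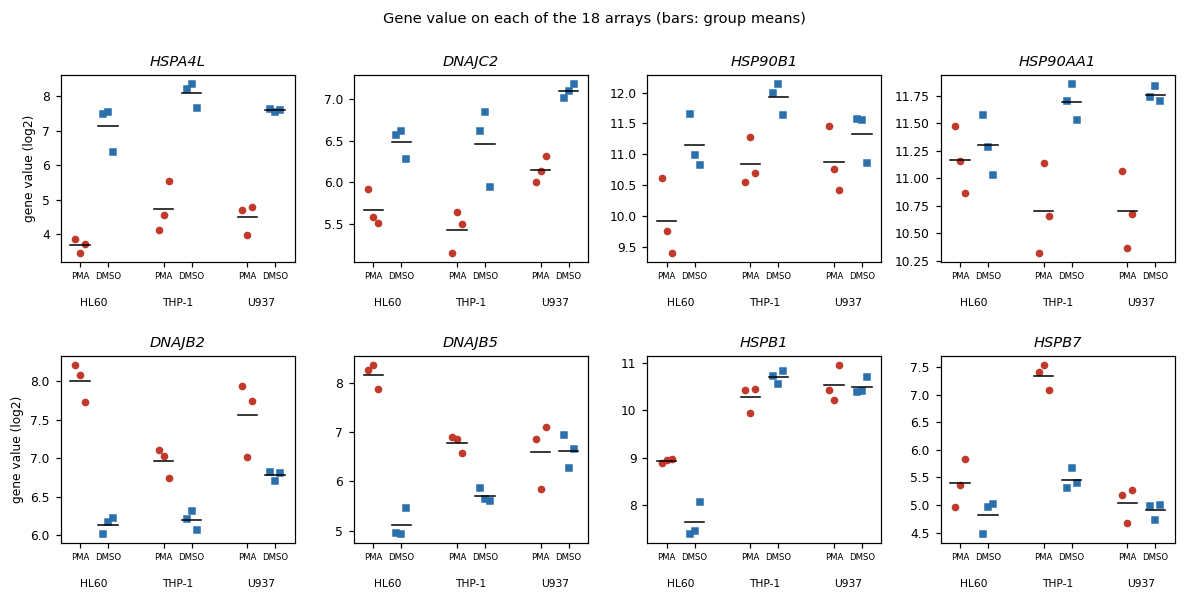
Gene value (log2) of 8 chaperone genes on each of the 18 arrays, with PMA arrays as circles left of DMSO arrays as squares and the group means as bars. HSPA4L and DNAJC2 are lower with PMA in all 3 lines, DNAJB2 is higher in all 3, and the others separate in 1 or 2 lines, as DNAJB5 does in HL60 and THP-1 and HSPB7 in THP-1.

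Among the 9 tested HSP70 genes none was called in HL60 (limma, and none at an unadjusted p under 0.05). In each of THP-1 and U937 3 were lower, 33.3% of them, against 13.2% and 16.5% of all genes. HSPA8, the constitutive cytosolic HSP70, had 12.32, 12.41 and 12.31 log2 in PMA-treated HL60, against 12.31, 12.30 and 12.35 with DMSO, a difference of 0.03 ± 0.16. In U937 it had 12.25, 11.86 and 12.52 with PMA, against 12.68, 12.78 and 12.80, a fall of 0.55 ± 0.16 (adjusted p = 0.0216, limma). That fall shrank to -0.31 with centred arrays (adjusted p = 0.0912) and to -0.36 without both U937 arrays numbered 2 (0.0931), and the call was also lost without DMSO array 2 or 3 and when U937 arrays alone were fitted (adjusted p = 0.321). HSPA14, which works at the ribosome, was lower in THP-1 and U937 by 0.92 ± 0.32 and 1.14 ± 0.32, and HSPA13, an HSP70 of the secretory pathway, in THP-1 by 1.04 ± 0.33. The THP-1 calls of HSPA13, HSPA14 and HSPA9 were each lost without DMSO array 1 or 2 or PMA array 1 or 3. The testis-enriched HSPA2 had 5.47, 5.08 and 5.20 log2 in PMA-treated THP-1, against 6.19, 6.04 and 5.34, and 6.39, 5.99 and 6.12 in PMA-treated U937, against 5.92, 5.48 and 5.30. Neither change was called in the fit without the block (adjusted p = 0.0551 and 0.0586), but the effect in THP-1 minus that in U937 was -1.21 ± 0.31 (adjusted p = 0.0285, limma), a call lost when any 1 of 7 arrays of these lines was left out, with the arrays of these lines alone (0.0964) and, at -0.64, with probe sets above the 30th percentile (0.203). HSPA12A, HSPA12B and HSPA1L were called in no line and lay between -0.10 and 0.62. The untested HSPA6 differed by 0.01, 0.28 and 0.56 log2 on its only probe set, with overlapping groups throughout.

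A list of 9 tested genes taken as stress-inducible (HSPA8, HSPB1, HSPD1, HSPE1, HSPH1, HSP90AA1, HSP90AB1, DNAJA1 and DNAJB1) includes the constitutive HSPA8 and HSP90AB1. It had 1 member higher and none lower in HL60, and 2 lower and none higher in each of THP-1 and U937. In HL60 11.1% of the list was higher, against 12.3% of all genes. In THP-1 and U937 22.2% was lower, against 13.2% and 16.5%. The median change of the list was 0.03, -0.69 and -0.78 log2. With the replicate block the counts were 1 higher and 2 lower in HL60, 5 lower in THP-1 and 7 lower in U937. Of all genes 16%, 20.7% and 25.5% were then lower. DNAJB1, the main J-protein partner of HSP70 under heat, changed by 0.10, -0.07 and -0.30 ± 0.23 and passed nowhere. DNAJA1, a cytosolic J-protein, had 8.27, 7.56 and 7.48 log2 in PMA-treated U937, against 8.99, 9.06 and 8.44. The groups did not overlap, and the fall of 1.06 ± 0.38 narrowly missed the threshold (adjusted p = 0.0524, limma) and passed with the block (0.000159), with U937 arrays alone (0.011) and without DMSO array 3 or PMA array 1 (0.0426 and 0.0342). Of the companion heat shock factors, HSF2 had 4.25 ± 0.32 log2 in PMA-treated HL60 against 5.82 ± 0.55 (SD, n = 3), a change of -1.57 ± 0.35 (adjusted p = 0.00277). Its changes of -0.67 in THP-1 and -0.94 in U937 were not called in the fit without the block (adjusted p = 0.204 and 0.0689, limma). With the block HSF2 was lower in HL60, THP-1 and U937 (adjusted p = 7.53e-05, 0.0325 and 0.00471, limma). HSF2BP, which binds it, was lower in THP-1 and U937 by 0.87 ± 0.17 and 1.20 ± 0.17. HSF1 changed by 0.02, -0.04 and -0.04 and HSF4 by 0.12, 0.03 and -0.11 in HL60, THP-1 and U937. Neither was called with or without the block.

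Promoter sequence was available for 65 of the 73 members, from RefSeq (GRCh38.p14), as 250 bases before and 50 after the start of the transcript. The 3-unit heat shock element, searched on both strands as GAANNTTCNNGAA, was found in 4 of them (HSPA8, HSPA6, DNAJA1 and DNAJB6, 6.15%) and in 0.366% of 15842 promoters of protein-coding genes. Its overlapping 2-unit forms, GAANNTTC and TTCNNGAA, were in 13.8% and 12.3% of member promoters and in 5.56% and 6.6% of all. The 250 bases before the start are given for HSPA8 (chr11:123062137-123062386, minus strand) and DNAJB6 (chr7:157336754-157337003, plus strand), which hold the longer element, for HSPB1 (chr7:76302423-76302672, plus strand), which holds a 2-unit form and was higher in HL60, and for HSPA4L (chr4:127781546-127781795, plus strand), the gene that fell most, where no form was found in this window. Letters in capitals are matches to the 3-unit or 2-unit forms, and each sequence reads 5′ to 3′ toward the gene.
HSPA8: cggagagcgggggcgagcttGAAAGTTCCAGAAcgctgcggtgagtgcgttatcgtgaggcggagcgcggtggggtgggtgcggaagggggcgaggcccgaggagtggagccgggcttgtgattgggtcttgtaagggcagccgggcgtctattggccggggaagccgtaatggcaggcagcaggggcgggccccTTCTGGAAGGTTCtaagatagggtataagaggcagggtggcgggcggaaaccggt
DNAJB6: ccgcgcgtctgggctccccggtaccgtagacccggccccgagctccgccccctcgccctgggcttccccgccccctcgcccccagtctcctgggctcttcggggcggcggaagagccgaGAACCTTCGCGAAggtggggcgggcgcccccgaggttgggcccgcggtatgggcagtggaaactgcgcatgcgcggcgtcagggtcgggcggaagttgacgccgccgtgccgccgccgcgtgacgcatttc
HSPB1: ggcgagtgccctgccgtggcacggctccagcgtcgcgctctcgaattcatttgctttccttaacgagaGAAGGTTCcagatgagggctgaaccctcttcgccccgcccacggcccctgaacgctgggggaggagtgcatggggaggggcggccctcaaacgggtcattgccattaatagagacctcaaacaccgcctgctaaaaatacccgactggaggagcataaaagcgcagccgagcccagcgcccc
HSPA4L: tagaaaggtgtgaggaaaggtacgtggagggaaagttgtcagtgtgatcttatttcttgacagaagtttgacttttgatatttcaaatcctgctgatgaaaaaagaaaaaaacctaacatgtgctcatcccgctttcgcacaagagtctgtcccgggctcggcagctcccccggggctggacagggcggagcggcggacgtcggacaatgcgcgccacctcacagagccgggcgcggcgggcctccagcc
Of the 4 genes with the longer element, HSPA6 was not tested. DNAJB6, HSPA8 and DNAJA1 changed by 0.88, 0.03 and 0.10 in HL60, 0.56, -0.18 and -0.80 in THP-1, and -0.07, -0.55 and -1.06 in U937. Their signs were alike in HL60 and in U937 and differed in THP-1. DNAJB6 was called higher in HL60 (0.88 ± 0.24, adjusted p = 0.0105, limma) and HSPA8 lower in U937. DNAJA1 was lower in THP-1 and U937 with the block and not in the fit without it. Whether the element plays a part was not tested. The DNAJB6 call was lost without DMSO array 2 or PMA array 1 of HL60 (0.0537 and 0.0704).

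Different small heat shock proteins rose in HL60 and THP-1, and in the fit without the block none was called in U937. HSPB1 (HSP27), which holds unfolded clients and binds actin, had 8.89, 8.95 and 8.98 log2 in PMA-treated HL60, against 7.39, 7.46 and 8.06 with DMSO. The PMA arrays lay above all DMSO arrays, and the rise was 1.30 ± 0.22 (adjusted p = 0.000172, limma), with all 8 probe sets up. THP-1 gave 10.42, 9.94 and 10.44 with PMA against 10.71, 10.54 and 10.82 (-0.42 ± 0.22, adjusted p = 0.192), and U937 differed by 0.04 ± 0.22.

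HSPB7, best known from heart and muscle, had 7.41, 7.54 and 7.08 log2 in PMA-treated THP-1, against 5.31, 5.67 and 5.40 with DMSO, a rise of 1.88 ± 0.23 (adjusted p = 1.22e-05, limma). HSPB3, a muscle small heat shock protein, had 6.32, 6.71 and 4.91 in PMA-treated THP-1, against 3.87, 3.41 and 4.42, a rise of 2.08 ± 0.38 (adjusted p = 0.00057). Groups were apart for both genes in THP-1, but PMA array 3 of HSPB3 lay close to the highest DMSO value, and HSPB3 lay below 5.17 with DMSO. Neither was called in HL60 or U937 in the fit without the block, and HSPB7 was higher in HL60 with it, by 0.57 (adjusted p = 0.00849). The 4 other tested genes of the family, HSPB6, HSPB8, HSPB9 and IFT25, were called nowhere in the fit without the block. IFT25 ranged widely within groups, as with 8.0, 4.91 and 4.93 log2 in PMA-treated HL60 against 8.34, 6.16 and 5.65, and with the block its falls of 0.77, 0.82 and 1.32 passed in all 3 lines (adjusted p = 0.0247, 0.018 and 0.000725). HSPB2, untested with 2 probe sets, differed by 0.20 to 0.31 log2.

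The mitochondrial chaperones HSPD1, HSPE1, HSPA9 and DNAJA3 were lower with PMA in every pair of same-numbered arrays, and HSPD1 and HSPE1, not called in the fit without the block, were called in all 3 lines where that pairing was used. HSPD1 (HSP60) had 9.84, 7.92 and 7.90 log2 in PMA-treated HL60, against 10.82, 9.60 and 9.37 with DMSO. It had 9.66, 10.02 and 8.46 in PMA-treated THP-1, against 10.70, 10.92 and 9.19. In U937 it had 10.55, 9.67 and 8.82 with PMA, against 11.31, 11.24 and 10.29. Groups overlapped in all 3 lines, yet each PMA array lay below the DMSO array of its number, by 0.73 to 1.67 log2. The changes of -1.37, -0.89 and -1.26 ± 0.60 did not pass in the fit without the block (adjusted p = 0.122, 0.337 and 0.168, limma) and passed with it, where the SE was 0.18 (adjusted p = 3.8e-05, 0.00162 and 9.81e-05). HSPD1 was also called in U937 with U937 arrays alone (adjusted p = 0.00162) or with probe-set medians (-1.53, 0.0398), and in HL60 without PMA array 1 (-2.01, 0.0198).

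HSPE1 (HSP10), which closes the HSPD1 chamber, had the same order within pairs. It had 8.21, 5.90 and 5.91 log2 in PMA-treated HL60, against 9.19, 7.36 and 7.02 with DMSO, 8.05, 8.93 and 6.33 in PMA-treated THP-1, against 9.04, 9.53 and 6.81, and 9.14, 8.05 and 7.13 in PMA-treated U937, against 10.21, 10.10 and 7.98. The spread between numbers within a group was larger than the PMA difference within a number. Its changes of -1.18, -0.69 and -1.32 ± 0.87 had adjusted p = 0.393, 0.634 and 0.368 without the block and 0.000423, 0.0182 and 0.000187 with it (limma), and the U937 change also passed with U937 arrays alone (0.000866).

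**Figure D3:**
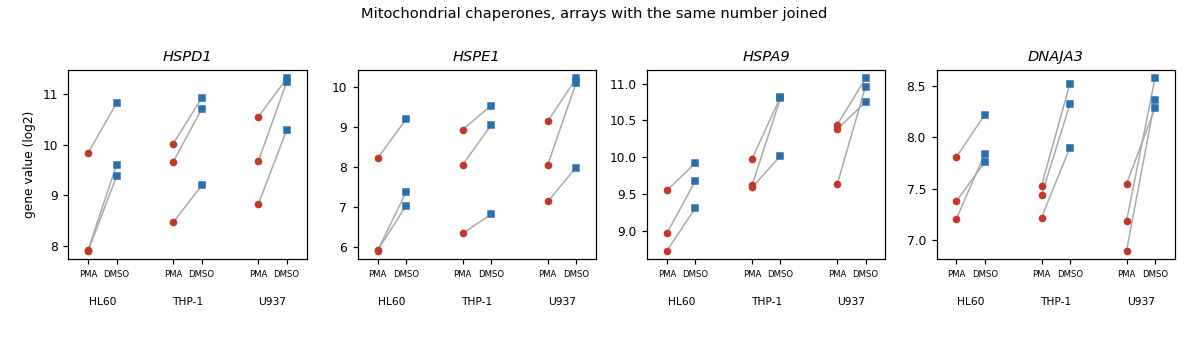
Gene value (log2) of 4 mitochondrial chaperones, with PMA arrays (circles) left of DMSO arrays (squares) and arrays of the same number in a line joined. In each joined pair of all 4 genes the PMA array is the lower one. The groups as a whole overlap in every line for HSPD1 and HSPE1, and in HL60 for HSPA9 and DNAJA3.

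HSPA9 (mortalin), the mitochondrial HSP70 that pulls in imported proteins, had 9.62, 9.98 and 9.59 log2 in PMA-treated THP-1, against 10.80, 10.82 and 10.02, and 10.44, 9.63 and 10.38 in PMA-treated U937, against 11.07, 10.96 and 10.75. Its changes were -0.56, -0.82 and -0.78 ± 0.27 in HL60, THP-1 and U937, called in THP-1 and U937 (adjusted p = 0.171, 0.0378 and 0.0483, limma) and in HL60 with the block (0.0379). Its U937 call was lost under 9 alternatives, among them centred arrays (-0.54, adjusted p = 0.0572) and leaving out both arrays numbered 2 (-0.50, adjusted p = 0.321). DNAJA3, its J-protein in the matrix, was lower in THP-1 and U937 by 0.85 ± 0.22 and 1.19 ± 0.22 (adjusted p = 0.00799 and 6e-04), and in HL60 by 0.47 with the block (0.0382). DNAJC11, a J-protein of the mitochondrial membranes, was lower in the same lines by 0.87 ± 0.26 and 1.09 ± 0.26. The import motor J-proteins DNAJC15 and DNAJC19 were lower in U937 with the block and not in the fit without it. DNAJC4 was the exception of the mitochondrial list. It had 8.30, 8.39 and 8.21 log2 in PMA-treated HL60 against 7.12, 7.17 and 7.18, a rise of 1.14 ± 0.16 (adjusted p = 2.88e-05). Its rise of 0.46 ± 0.16 in U937 (0.0465) lost its call when any 1 of 5 U937 arrays was left out. DNAJC30, a mitochondrial J-protein that the list leaves out, changed by 0.62, 0.48 and -0.22 in HL60, THP-1 and U937. It was not called in the fit without the block and passed in HL60 with it (adjusted p = 0.0143).

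Counted together, the 8 genes of the mitochondrial list had 1 higher and 0 lower in HL60, 0 and 3 in THP-1, and 1 and 3 in U937, with medians of -0.60, -0.75 and -1.12 log2. With the block they were 1 and 5, 1 and 5, and 1 and 7. Of 12 tested companion genes of mitochondrial folding and proteolysis, none was higher and 2, 4 and 6 were lower in HL60, THP-1 and U937 (4, 7 and 10 with the block). Those lower without the block were 16.7%, 33.3% and 50% of the 12, against 10.7%, 13.2% and 16.5% of all genes. With the block 16%, 20.7% and 25.5% of all genes were lower. The 3 lower genes of the mitochondrial list were 37.5% of it in THP-1 and in U937. TRAP1, the mitochondrial HSP90, was lower in all 3 lines, with 8.58 ± 0.09, 8.38 ± 0.02 and 8.12 ± 0.25 log2 with PMA against 9.42 ± 0.05, 9.51 ± 0.26 and 9.73 ± 0.10 (SD, n = 3). The disaggregase CLPB was lower in all 3 by 0.77, 0.80 and 0.74 ± 0.20. The protease LONP1 was lower in THP-1 by 0.91 ± 0.24 and the protease subunit AFG3L2 in THP-1 and U937 by 0.86 and 0.93 ± 0.23. GRPEL2, an exchange factor for HSPA9, was lower in the same lines by 0.76 and 1.05 ± 0.19, and TIMM44, which anchors HSPA9 at the import pore, in U937 by 1.01 ± 0.26.

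Of the 10 tested members of the endoplasmic reticulum, 1 was higher and 1 lower in HL60, 2 were lower in THP-1 and 1 was lower in U937. The lower shares of 10%, 20% and 10% stand against 10.7%, 13.2% and 16.5% of all genes. With the block the counts for the endoplasmic reticulum were 2 and 2, 0 and 4, and 0 and 2. Higher and lower shares of all genes were then 18.4% and 16%, 14.1% and 20.7%, and 7.76% and 25.5%. HSPA5 (BiP), its main HSP70 and the sensor of unfolded proteins there, had 10.59, 9.20 and 9.17 log2 in PMA-treated HL60, against 10.83, 9.63 and 9.47, and changed by -0.32, -0.37 and -0.14 ± 0.47 in the 3 lines, with overlap in each. DNAJC3, which binds HSPA5 clients, changed by 0.14, -0.43 and 0.16, and DNAJB9, a J-protein that helps clear misfolded proteins, by 0.78, 0.38 and 0.35 ± 0.42 (called in HL60 with the block, adjusted p = 0.00515). DNAJC10, a J-protein and disulfide reductase, had 8.45, 7.61 and 8.36 log2 in PMA-treated U937, against 9.25, 9.08 and 9.15, a fall of 1.01 ± 0.31 (adjusted p = 0.0243, limma) that went to -0.79 without both arrays numbered 2 (0.179) and whose call was lost without any DMSO array or PMA array 2. DNAJB12, a membrane J-protein of the same degradation route, had 8.07, 8.31 and 7.91 in PMA-treated HL60, against 7.15, 7.27 and 6.98, a rise of 0.96 ± 0.23 (0.00443).

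The endoplasmic reticulum stress response element, searched on both strands as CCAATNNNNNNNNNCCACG, was in 2 of 65 member promoters (3.08%), HSPA5 and HSP90B1, and in 0.12% of all 15842. Both are shown because only HSP90B1 of the pair was called. The windows are HSP90B1 at chr12:103930160-103930409 (plus strand) and HSPA5 at chr9:125241344-125241593 (minus strand), GRCh38.p14, 5′ to 3′, with capitals on the matches, and the second match in HSP90B1 is on the opposite strand.
HSP90B1: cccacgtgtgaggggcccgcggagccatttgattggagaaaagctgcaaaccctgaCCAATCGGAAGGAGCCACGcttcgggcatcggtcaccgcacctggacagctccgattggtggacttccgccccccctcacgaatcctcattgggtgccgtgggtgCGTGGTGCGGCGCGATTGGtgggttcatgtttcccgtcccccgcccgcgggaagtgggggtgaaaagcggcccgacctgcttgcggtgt
HSPA5: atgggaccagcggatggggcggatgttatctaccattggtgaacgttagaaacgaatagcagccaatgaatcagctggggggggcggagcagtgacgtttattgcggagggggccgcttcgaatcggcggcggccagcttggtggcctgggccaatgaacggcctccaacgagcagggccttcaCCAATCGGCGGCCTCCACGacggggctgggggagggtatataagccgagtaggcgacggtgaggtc
Among 26 tested companions of this compartment, 4 were higher and 5 lower in HL60, 2 and 3 in THP-1, and 1 and 4 in U937. These are 15.4% and 19.2%, 7.69% and 11.5%, and 3.85% and 15.4%. Of all genes they were 12.3% and 10.7%, 9.38% and 13.2%, and 5.5% and 16.5%. With the block the balance in U937 turned, and the counts were 6 and 8, 4 and 4, and 5 and 4. Higher and lower genes made up 18.4% and 16%, 14.1% and 20.7%, and 7.76% and 25.5% of all genes with the block. PPP1R15A (GADD34), which restores translation after stress, was higher in all 3 by 1.56, 2.19 and 1.69 ± 0.23, P4HB, a disulfide isomerase, was lower in all 3 by 0.95, 0.74 and 0.78 ± 0.16, and PDIA5 was lower in HL60 by 2.01 ± 0.31 and in U937 by 1.22 ± 0.31. DDIT3 (CHOP) and HERPUD1, targets of the unfolded protein response, were higher in HL60, by 1.29 ± 0.37 and 1.15 ± 0.20. Other genes of the list went both ways in HL60. CALR, CANX and PDIA6 changed there by -0.74, -0.65 and -0.97 (adjusted p = 0.00605, 0.0135 and 0.00217, limma), and SEL1L by 0.74 (0.0185). XBP1 changed by -0.60, -0.65 and -0.72 in HL60, THP-1 and U937, called in U937 (adjusted p = 0.0379, limma) and in all 3 lines with the block. HYOU1, an exchange factor for HSPA5, and EDEM1, a degradation factor, were lower in THP-1 by 0.80 ± 0.25 and 0.89 ± 0.25, and the oxidase ERO1A was lower in U937 by 0.88 ± 0.25.

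Of the 45 tested J-protein genes, 7 were higher and 2 lower in HL60, while 2 were higher and 7 lower in each of THP-1 and U937. These are 15.6% and 4.44% in HL60, against 12.3% and 10.7% of all genes, and 4.44% and 15.6% in the other lines, against 9.38% and 13.2% in THP-1 and 5.5% and 16.5% in U937. With the block the counts were 12 and 5, 4 and 13, and 3 and 17. As shares these are 26.7% and 11.1%, 8.89% and 28.9%, and 6.67% and 37.8%. Of all genes 18.4% and 16%, 14.1% and 20.7%, and 7.76% and 25.5% were then higher and lower. In the fit without the block, class B supplied 4 of the HL60 increases and no decrease in any line, and class A had DNAJA3 alone lower, in THP-1 and U937. With the block, class B had 1, 2 and 1 lower genes in HL60, THP-1 and U937, among them DNAJB11, an HSPA5 partner, in HL60 (-0.62, adjusted p = 0.023) and DNAJB14, of endoplasmic reticulum membranes, in THP-1 (-0.61, adjusted p = 0.0105). DNAJA2 changed by 0.31, -0.05 and -0.72 ± 0.42, called in U937 with the block (adjusted p = 0.0372). DNAJA4 changed by -0.36, -0.42 and -0.45 ± 0.20 (adjusted p = 0.242, 0.153 and 0.134), was not called with the block either, and passed in HL60 with quantile normalization or centred arrays (0.0156 and 0.0249). DNAJB2 (HSJ1), which passes clients to the proteasome, had 8.21, 8.08 and 7.73 log2 in PMA-treated HL60, against 6.01, 6.17 and 6.22 with DMSO. It had 7.11, 7.02 and 6.74 in PMA-treated THP-1, against 6.21, 6.31 and 6.06, and 7.94, 7.01 and 7.74 in PMA-treated U937, against 6.82, 6.70 and 6.81. No line overlapped, and all 18 probe sets were up in each. The rises were 1.87 ± 0.21, 0.76 ± 0.21 and 0.79 ± 0.21 (adjusted p = 2.37e-06, 0.013 and 0.0109, limma), and the effect in HL60 exceeded that in THP-1 by 1.11 ± 0.30 (adjusted p = 0.0271) and that in U937 by 1.09 ± 0.30 (0.0309). Without PMA array 1 of the line the THP-1 and U937 calls were lost (adjusted p = 0.0627 and 0.0626), as was the THP-1 call with probe-set medians (0.0674) and the U937 call with U937 arrays alone (0.0856). The differences from THP-1 and U937 lost their call under 7 and 8 of 22 alternatives, the second among others with the arrays of HL60 and U937 alone (0.0771).

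DNAJB5, a close relative of DNAJB1, rose most of all members. It had 8.25, 8.36 and 7.88 log2 in PMA-treated HL60, against 4.95, 4.93 and 5.47 with DMSO, and 6.9, 6.86 and 6.57 in PMA-treated THP-1, against 5.87, 5.64 and 5.61. In U937, 6.86, 5.85 and 7.10 with PMA overlapped 6.93, 6.27 and 6.65. The rises were 3.04 ± 0.27 in HL60 and 1.07 ± 0.27 in THP-1 (adjusted p = 1.47e-07 and 0.00772, limma), and the U937 change was -0.02 ± 0.27. The lines differed in this response, HL60 from THP-1 by 1.97 ± 0.39 (adjusted p = 0.00308) and from U937 by 3.07 ± 0.39. DNAJB4, a heat-inducible J-protein, changed by 0.49, -0.87 and -0.77 ± 0.31, none of them called in the fit without the block and all 3 with it (adjusted p = 0.0473, 0.00171 and 0.00381).

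Class C, whose genes share little beyond the J domain, split by line. DNAJC5G, a cysteine string protein known from testis, had 6.38, 6.55 and 7.11 log2 in PMA-treated HL60, against 3.98, 4.08 and 3.60 with DMSO. DNAJC22, whose fly counterpart acts in endocytosis, had 7.04, 6.79 and 7.43, against 4.66, 4.88 and 4.84. PMA arrays were far above DMSO arrays for both, with rises of 2.79 ± 0.20 and 2.29 ± 0.22 (adjusted p = 1.24e-08 and 2.75e-07, limma), and both lay below 5.17 with DMSO. Neither was called in the other lines, where DNAJC5G changed by 0.43 and 0.04 and DNAJC22 by -0.43 and 0.22.

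The related DNAJC5B had 4.94, 5.13 and 4.90 log2 in PMA-treated THP-1, against 6.17, 6.69 and 5.73 with DMSO, a fall of 1.21 ± 0.34 (adjusted p = 0.0138, limma). That call was lost with probe sets above the 30th percentile (-0.67, adjusted p = 0.135), with probe-set medians (0.0593) and without DMSO array 2 (0.0888). In HL60 its PMA arrays, 5.26, 4.74 and 4.23, lay above 3.94, 3.70 and 3.95 with DMSO, and U937 overlapped. The changes of 0.88 and 0.75 ± 0.34 were not called in the fit without the block, and they were with it (adjusted p = 0.00695 and 0.0186). The third gene of the trio, DNAJC5, a chaperone of synaptic vesicles, changed by -0.05, 0.16 and 0.32 and passed nowhere.

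DNAJC2, which sits on the ribosome with HSPA14, had 5.92, 5.58 and 5.51 log2 in PMA-treated HL60, against 6.57, 6.61 and 6.28 with DMSO. It had 5.15, 5.64 and 5.50 in PMA-treated THP-1, against 6.61, 6.84 and 5.94, and 6.0, 6.14 and 6.31 in PMA-treated U937, against 7.01, 7.09 and 7.18. Groups were apart in each line, with falls of 0.82, 1.03 and 0.94 ± 0.21 (adjusted p = 0.00858, 0.00167 and 0.00341, limma). With the median in place of the mean of its 9 probe sets, the THP-1 and U937 calls were lost (adjusted p = 0.0626 and 0.138).

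DNAJC9, a chaperone of newly made histones, had 8.23, 7.34 and 7.62 log2 in PMA-treated HL60, against 9.79, 9.10 and 8.86 with DMSO, and 8.03, 7.99 and 7.75 in PMA-treated U937, against 9.90, 9.89 and 9.04. The falls were 1.52 ± 0.30 and 1.69 ± 0.30 (adjusted p = 0.000894 and 0.000478, limma). In THP-1 it had 8.07, 7.89 and 7.34 with PMA, against 8.78, 8.81 and 8.23, also apart, and -0.84 ± 0.30 missed the threshold narrowly (adjusted p = 0.053, or 0.00102 with the block). DNAJC21, of ribosome assembly, was lower in THP-1 by 1.06 ± 0.30. DNAJC24, of diphthamide synthesis, was lower in THP-1 and U937 by 0.79 and 0.84 ± 0.27 (adjusted p = 0.0456 and 0.0341), calls lost under 7 and 9 of 16 alternatives, the second among them with quantile normalization (0.0697) and centred arrays (0.0704). DNAJC25 was lower in both by 1.00 and 1.09 ± 0.28. Of the splicing J-proteins, DNAJC8 and DNAJC17 were lower in U937 with the block and not in the fit without it, and the endosomal DNAJC13 likewise in THP-1.

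The effect of PMA differed between HL60 and THP-1 in 8 members, against 7.78% of all genes, between HL60 and U937 in 5, against 7.73%, and between THP-1 and U937 in 4, against 4.77%. With the replicate block these counts were 17 (15.5%), 18 (16.4%) and 7 (10.1%). DNAJC22 gave the largest gap of HL60 to THP-1, 2.73 ± 0.31 log2 (adjusted p = 1.96e-05, limma). HSPB1 stood 1.72 ± 0.31 higher in HL60 than in THP-1 and 1.26 higher than in U937, although the U937 gap was lost with centred arrays (0.97, adjusted p = 0.0527) and with probe-set medians (0.68, adjusted p = 0.396). HSPB7 responded 1.31 ± 0.33 less in HL60 and 1.74 less in U937 than in THP-1, and the gap to HL60 lost its call under 6 of 22 alternatives.

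**Figure D4:**
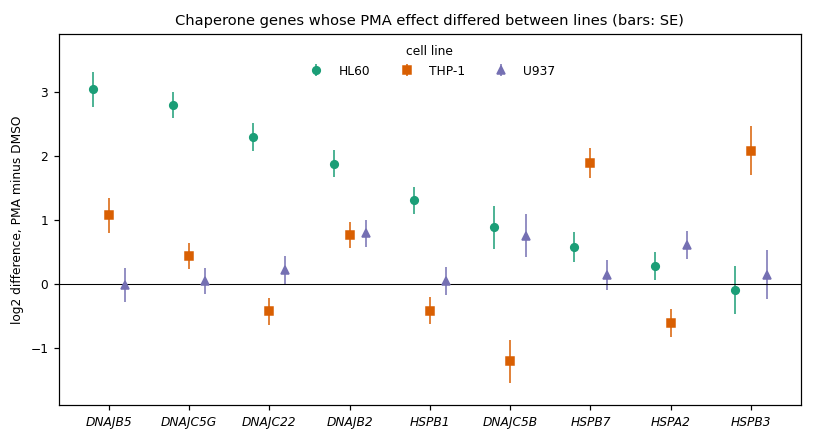
Change with PMA (log2, PMA minus DMSO, bars are SE) in HL60, THP-1 and U937 for the 9 members whose effect differed between lines. DNAJB5, DNAJC5G, DNAJC22, DNAJB2 and HSPB1 are highest in HL60, HSPB7 and HSPB3 in THP-1, and DNAJC5B and HSPA2 are lowest in THP-1.

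Genes that work with these chaperones were listed by role, and 95 of them were tested. With PMA, 12 were higher and 14 lower in HL60, 6 and 14 in THP-1, and 2 and 25 in U937 (19 and 29, 11 and 31, and 7 and 47 with the block). These are 12.6% and 14.7%, 6.32% and 14.7%, and 2.11% and 26.3% of the list, against 12.3% and 10.7%, 9.38% and 13.2%, and 5.5% and 16.5% of all genes. With the block, 18.4% and 16%, 14.1% and 20.7%, and 7.76% and 25.5% of all genes were higher and lower. The U937 figures were 6 higher and 8 lower without both arrays numbered 2, where 8.1% of all genes were higher and 10.2% lower. Among 19 HSP70 partners, BAG3, an exchange factor that steers clients to autophagy, was higher in all 3 lines by 2.60, 0.69 and 0.75 ± 0.23, and BAG2, which blocks the ubiquitin ligase CHIP, was lower in all 3 by 1.47, 1.61 and 1.21 ± 0.20. STIP1 (HOP), which links HSP70 to HSP90, averaged 11.2 ± 0.12 log2 in PMA-treated HL60 against 9.71 ± 0.02 with DMSO (SD, n = 3), and SGTB was higher there by 1.87 ± 0.25. SIL1, an exchange factor for HSPA5, was higher in HL60 and THP-1 by 0.93 and 0.94 ± 0.29, and BAG5 was lower in U937 by 0.85 ± 0.30. The member HSPBP1, another exchange factor, fell in U937 by 0.79 ± 0.22, and HSPBAP1, at -0.59 in HL60, was not called (adjusted p = 0.0811) but was under 8 of 16 alternatives, among them the block (0.0055) and quantile normalization (0.00586).

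HSP90 co-chaperones had 1 higher and 3 lower of 14 in HL60, 1 and 4 in THP-1, and 0 and 5 in U937. The lower genes were 21.4%, 28.6% and 35.7% of the list, against 10.7%, 13.2% and 16.5% of all genes. FKBP5, FKBP4 and CHORDC1 were lower in all 3 lines. FKBP5, a steroid receptor partner, averaged 6.66 ± 0.14, 6.16 ± 0.60 and 8.07 ± 0.29 log2 with PMA against 8.21 ± 0.42, 8.20 ± 0.48 and 10.6 ± 0.65 (SD, n = 3), and CHORDC1 fell by 1.40, 1.26 and 1.52 ± 0.27. CDC37, which brings kinases to HSP90, was higher in HL60 and THP-1 by 0.68 and 0.67 ± 0.20. The TRiC ring and prefoldin, which fold actin and tubulin, had 1 higher and 2 lower of 15 in HL60, none called in THP-1 (limma, with 1 at an unadjusted p under 0.05, with 1 higher and 7 lower by the block) and 4 lower in U937, where CCT2 fell by 1.49 ± 0.47, CCT6A by 1.33 ± 0.40 and CCT5 by 1.19 ± 0.37. The lower genes were 13.3%, 0% and 26.7% of this list in HL60, THP-1 and U937, against 10.7%, 13.2% and 16.5% of all genes. With the block it had 3 higher and 7 lower in HL60 and 13 lower in U937. Of all genes 18.4% were then higher in HL60, and 16%, 20.7% and 25.5% were lower in HL60, THP-1 and U937. In HL60 PFDN1 rose by 1.49 ± 0.29 and TCP1 fell by 1.00 ± 0.23. HMOX1, a haem-degrading stress gene, averaged 9.21 ± 0.94 log2 in PMA-treated THP-1 against 4.85 ± 0.08, and was higher in HL60 too, by 2.56 ± 0.55. The collagen chaperone SERPINH1 was higher in HL60 by 0.80 ± 0.20.

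**Figure D5:**
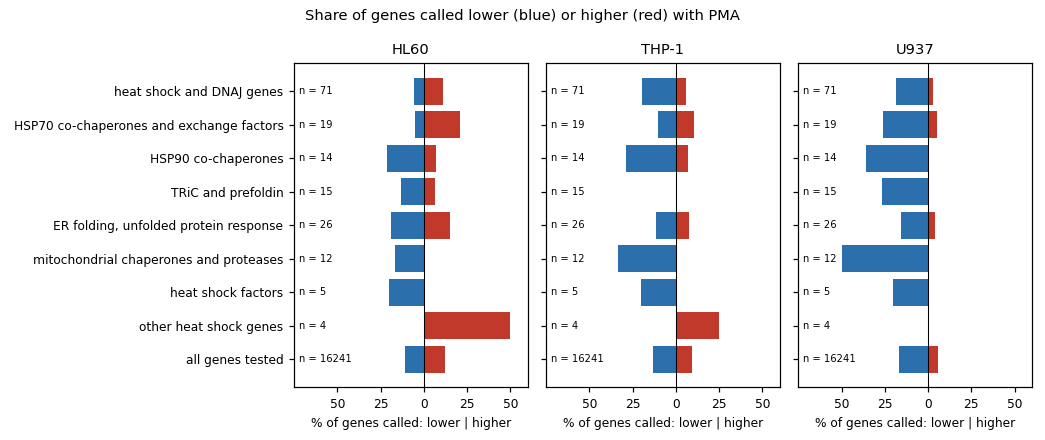
Share of genes called lower (blue, left) and higher (red, right) with PMA in each line, for the 71 chaperone genes, 7 companion lists and all 16241 genes. The list of mitochondrial companions has lower genes in all 3 lines and no higher one, and the HSP70 partners have their largest share of higher genes in HL60.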

How the data were processed

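RNA from 18 samples was measured on exon arrays. The deposited values are log2 probe-set signals that the authors made with Affymetrix Expression Console, per the submitters' processing notes; its version, the normalization and the probe-set summary are not stated in those notes. Of 287329 probe sets, 261273 carried 1 gene symbol in the platform annotation, 9155 several and 16901 none; the mean of the single-symbol probe sets was the gene's value, with a minimum of 3. No further scaling was applied. With R 4.3.3, limma 3.58.1 fitted the 6 group means with a shared spread (12 residual degrees of freedom) over 16241 genes, and p-values were adjusted by Benjamini-Hochberg. The fit was tested on simulated data. The number of arrays limits the precision. The 9 pairs of PMA and DMSO arrays with the same number in the labels deviated together (r from 0.285 to 0.79). Arrays of a line with different numbers gave r from -0.654 to 0.437, which overlaps that range. The numbers were taken to pair the arrays from these same values, as the labels do not say so. The fit with that block is given beside the other. The alternatives were quantile normalization, centred arrays, probe-set medians, filters at the 30th percentile, a minimum of 1 probe set, each line's own arrays, and leaving out arrays. The members and lists were chosen with earlier results of these data known. The text names, per line, up to 10 called members with the largest change in each direction whose groups do not overlap, up to 5 per direction between lines, 16 main chaperones, every member of families of 5 or fewer, and up to 3 called companions per list and line; other genes were named after their values were seen. Promoters came from RefSeq (GRCh38.p14).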

Additional observations from a re-analysis of the deposited data

Results flagged for a closer look

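The response to PMA differed between lines in 9 members, by the difference between their PMA effects in the limma fit. Between HL60 and THP-1 (HL60 minus THP-1), the difference was 2.73 log2 for DNAJC22, 2.36 for DNAJC5G, 2.10 for DNAJC5B, 1.97 for DNAJB5, 1.72 for HSPB1 and 1.11 for DNAJB2, and it was -2.18 for HSPB3 and -1.31 for HSPB7. Between HL60 and U937 (HL60 minus U937), it was 3.07 log2 for DNAJB5, 2.75 for DNAJC5G, 2.08 for DNAJC22, 1.26 for HSPB1 and 1.09 for DNAJB2. Between THP-1 and U937 (THP-1 minus U937), it was 1.94 log2 for HSPB3, 1.74 for HSPB7, -1.96 for DNAJC5B and -1.21 for HSPA2. The DNAJB2 call was lost under 7 and 8 of 22 alternatives for HL60 against THP-1 and U937, the HSPB7 and HSPB3 calls for HL60 against THP-1 under 6 of 22 and 3 of 20, the DNAJC5B call there under 1 of 21, the HSPB1 call for HL60 against U937 under 2 of 22, and the DNAJC5B and HSPA2 calls for THP-1 against U937 under 5 of 21 and 9 of 22. The HSPB3 call for THP-1 against U937 was lost under 13 of 20, among them with the arrays of those lines alone (adjusted p = 0.0946), with probe-set medians (0.298) and without both U937 arrays numbered 2 (0.15). The groups hold 3 arrays each, so no search for single arrays far from their group was made.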

How the results depend on the processing

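No called change of a named gene reversed under any alternative checked for that gene. The replicate block, though, turned the balance of the mitochondrial and stress-inducible lists in HL60, with 1 higher and 5 lower against 1 and 0, and 1 and 2 against 1 and 0. With the replicate block, members called higher and lower numbered 14 and 13 in HL60, 24 were lower in THP-1, and 4 and 30 were called in U937; 17, 18 and 7 differed between HL60 and THP-1, HL60 and U937, and THP-1 and U937; and companions called higher and lower were 19 and 29, 11 and 31, and 7 and 47 in HL60, THP-1 and U937. Quantile normalization gave 9 lower members in HL60, 8 higher in THP-1, 5 higher in U937, 14 differing between HL60 and THP-1, and 10 and 11 higher companions in THP-1 and U937. Centred arrays gave 9, 7, 6 and 13 for the same member counts, 22 lower companions in HL60, and 10 and 11 higher companions in THP-1 and U937. The median change over all genes was 0.08, 0.13 and 0.17 log2 with centred arrays in HL60, THP-1 and U937, 0.07, 0.08 and 0.12 with quantile normalization, and 0.13, 0.04 and -0.07 as deposited, against member medians of 0.00, -0.15 and -0.06, 0.03, -0.19 and -0.11, and 0.05, -0.23 and -0.30. Probe-set medians left 1 higher member in U937, 3 differing between HL60 and U937 and 2 between THP-1 and U937, and 2 and 1 higher companions in THP-1 and U937. Probe sets above the 30th percentile left 5, 3 and 1 members differing between lines, and genes above it left 5 between HL60 and THP-1 and 2 between THP-1 and U937. With each line's own arrays, 0 members and 1 companion were higher in U937, and 2 members differed between THP-1 and U937. Without both U937 arrays numbered 2, U937 had 4 higher and 6 lower members and 6 higher and 8 lower companions. Of all genes 8.1% were then higher and 10.2% lower in U937. THP-1 had 10 higher companions in that setting, where 14% of all genes were higher. Those arrays as a set of their own, an alternative chosen after seeing the data, gave 10 and 6 higher companions in THP-1 and U937. The causes of these shifts were not tested. Leaving out 1 array at a time gave 7 to 10 higher and 3 to 6 lower members in HL60, 3 to 6 and 3 to 18 in THP-1, and 0 to 5 and 8 to 18 in U937. The members differing between HL60 and THP-1, HL60 and U937, and THP-1 and U937 then numbered 6 to 11, 4 to 10 and 1 to 5, and companions 9 to 15 higher and 12 to 19 lower in HL60, 2 to 10 and 10 to 20 in THP-1, and 1 to 8 and 12 to 29 in U937. Of the named calls, 24 of 29 in HL60, 14 of 32 in THP-1 and 12 of 31 in U937 held under every alternative checked for the gene. So did 4 of 8 differences between HL60 and THP-1, 3 of 5 between HL60 and U937, and 1 of 4 between THP-1 and U937. Leaving out arrays of a line outside the comparison was not counted. Genes dropped by the filters at the 30th percentile were not checked there. DNAJC5G and DNAJC22 in HL60 and HSPB3 in THP-1 were thus checked under 14, 15 and 14 alternatives, against 16 for DNAJB5 in HL60.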
